A study of Mus musculus with 2 samples.

Results

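The genes described here are the complement C1q chains C1qa, C1qb and C1qc and 7 further genes of mature macrophages, Trem2, Apoe, Ms4a7, Gas6, Pf4, Cbr2 and Fcrls. They were chosen by name, and all 10 had a row among the 17232 genes of the deposited table. Tumor-infiltrating immune cells were profiled by scRNAseq from B16-OVA tumors, a mouse melanoma line that expresses ovalbumin, at day 14 in Maoa WT and Maoa KO mice. Maoa KO mice carry the tm1Shih allele, a hypomorphic mutant from a 129S background that was crossed back to C57BL/6J, and no further allele or treatment is given for either group. The methods give female mice aged 8 to 12 weeks as the rule for all experiments. For each genotype, 10 tumors were combined, DAPI- CD45.2+ cells were sorted, and 1 Chromium 3′ library was made, so no genotype had a replicate. All intervals below are 95% intervals of the counting error within these 2 libraries, not of the difference between mice.

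Maoa, the targeted gene, was nearly absent from both libraries: labelled WT, 6 cells held 7 UMIs (unique molecular identifiers, each standing for 1 captured RNA molecule), and labelled KO, 14 cells held 15 UMIs. These few counts did not run in the direction of the labels, so the libraries are called by their labels and every direction between them rests on those labels. The library labelled WT held 2392 cells with a median of 9887.5 UMIs, and the library labelled KO held 2630 cells with a median of 6945.5 UMIs. Among the barcode sequences, 13 occurred in both libraries.

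C1q is the recognition molecule of the classical complement pathway and is built from equal numbers of A, B and C chains. Tissue macrophages are its main source, unlike most complement proteins, which come from the liver. Monocytes that enter a tumor lose Ly6c2, a gene of inflammatory monocytes, as they become macrophages, and gain phagocytic receptors and lipid-handling genes. Trem2 is a lipid-sensing receptor that signals through Tyrobp, and Apoe is a lipid carrier that binds it. Gas6 bridges phosphatidylserine on dying cells to the receptors Axl and Mertk. Ms4a7 is a membrane protein of the MS4A family, Pf4 is the chemokine CXCL4, Cbr2 is a carbonyl reductase, and Fcrls is a scavenger receptor-like gene known from microglia.

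C1qb, C1qc and C1qa were neighbours on chromosome 4 of GRCm38. C1qb lies from 136880126 to 136886200, C1qc from 136889801 to 136892936 and C1qa from 136895916 to 136898844. The whole cluster spans 18719 bases, with 3600 bases between C1qb and C1qc and 2979 bases between C1qc and C1qa. The other members are on other chromosomes.

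Promoter windows (250 bases before to 50 after a RefSeq start, GRCm38.p6) were at hand for 9 members. C1qb and C1qc are shown because their transcripts rose and fell together from cell to cell. Cbr2 and Fcrls are shown from among the members nearly confined to the macrophage-like cells. The window of Gas6, the most confined member, is not shown and held 0 matches of either motif marked here. All 4 windows shown are on the minus strand of the genome and are written 5′ to 3′ along the gene. Capitals mark GAGGAA, the core bound by PU.1-type factors, and TGCTGA, a half-site of MAF factors, each on either strand.
C1qb, chr4:136886151-136886450: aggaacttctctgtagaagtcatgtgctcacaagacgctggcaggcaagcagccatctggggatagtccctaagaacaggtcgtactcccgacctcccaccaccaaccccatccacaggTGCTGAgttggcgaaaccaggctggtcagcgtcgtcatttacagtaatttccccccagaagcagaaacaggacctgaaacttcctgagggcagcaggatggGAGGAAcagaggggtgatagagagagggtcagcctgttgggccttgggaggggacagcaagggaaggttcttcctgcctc
C1qc, chr4:136892865-136893164: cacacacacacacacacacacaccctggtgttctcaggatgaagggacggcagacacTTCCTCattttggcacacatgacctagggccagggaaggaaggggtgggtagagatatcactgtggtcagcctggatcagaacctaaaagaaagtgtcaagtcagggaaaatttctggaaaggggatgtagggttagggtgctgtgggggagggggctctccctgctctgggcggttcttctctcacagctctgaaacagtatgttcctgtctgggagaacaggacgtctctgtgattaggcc
Cbr2, chr11:120731972-120732271: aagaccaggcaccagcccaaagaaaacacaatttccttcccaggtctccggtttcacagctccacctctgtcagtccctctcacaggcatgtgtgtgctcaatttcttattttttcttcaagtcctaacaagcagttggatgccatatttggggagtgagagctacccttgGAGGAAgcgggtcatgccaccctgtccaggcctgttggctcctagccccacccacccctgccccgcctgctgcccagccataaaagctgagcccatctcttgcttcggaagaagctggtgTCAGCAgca
Fcrls, chr3:87263475-87263774: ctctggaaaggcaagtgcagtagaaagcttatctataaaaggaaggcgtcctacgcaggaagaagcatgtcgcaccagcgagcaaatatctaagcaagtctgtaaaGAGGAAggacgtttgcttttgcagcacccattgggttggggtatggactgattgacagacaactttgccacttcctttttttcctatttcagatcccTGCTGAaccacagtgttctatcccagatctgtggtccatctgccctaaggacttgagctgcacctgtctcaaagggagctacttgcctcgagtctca
GAGGAA occurred in 9 of the 12 windows of these members, with at least 1 window each for 8 of the 9, and in 28.3% of all 32851 windows of the table. TGCTGA occurred in 3 of the 12 windows, those of C1qb, Cbr2 and Fcrls, and in 19.5% of all windows. All 3 are among the windows shown, so those windows are not typical of the members for this motif. Matches of different motifs did not overlap in the windows shown.

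All 5022 cells were clustered with the 10 members and Maoa left out of the variable genes, and clusters were named from marker lists. Cluster 10, led by Ccl8, Igf1 and Timp2, had 19 of 20 macrophage markers detected and is called macrophage-like (142 cells labelled WT and 126 labelled KO, median depths of 19814 and 20116 UMIs). Cluster 3, a myeloid cluster with Cxcl3 and Inhba among its leading genes, is given no cell type name here and is called the Cxcl3/Inhba cluster (362 and 133 cells). The first of the monocyte-like clusters was led by Dmkn, Il1b and Vcan (306 and 306 cells) and the second by Hp, Serpinb10 and Tppp3 (161 and 267 cells). DC-like, pDC-like, T-like, NK-like and B-like cells made up the rest, with a cluster led by Klra7 that stayed unnamed. Levels are CPM, the UMIs of a gene per 1000000 UMIs of the same cells, and genes are compared with themselves across classes.

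The 3 C1q chains were highest in the macrophage-like cells of both libraries and stepped down through the other myeloid clusters in the same order. Their summed level was 10589 CPM in the library labelled WT and 12124 CPM in the library labelled KO. The Il1b/Vcan monocyte-like cluster followed at 2634 and 2186 CPM. The Cxcl3/Inhba cluster had 1363 and 909 CPM, and the Hp monocyte-like cluster 683 and 290 CPM. The 4 clusters kept this order in both libraries, and no neighbouring Poisson intervals overlapped for the summed chains.

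**Figure D1:**
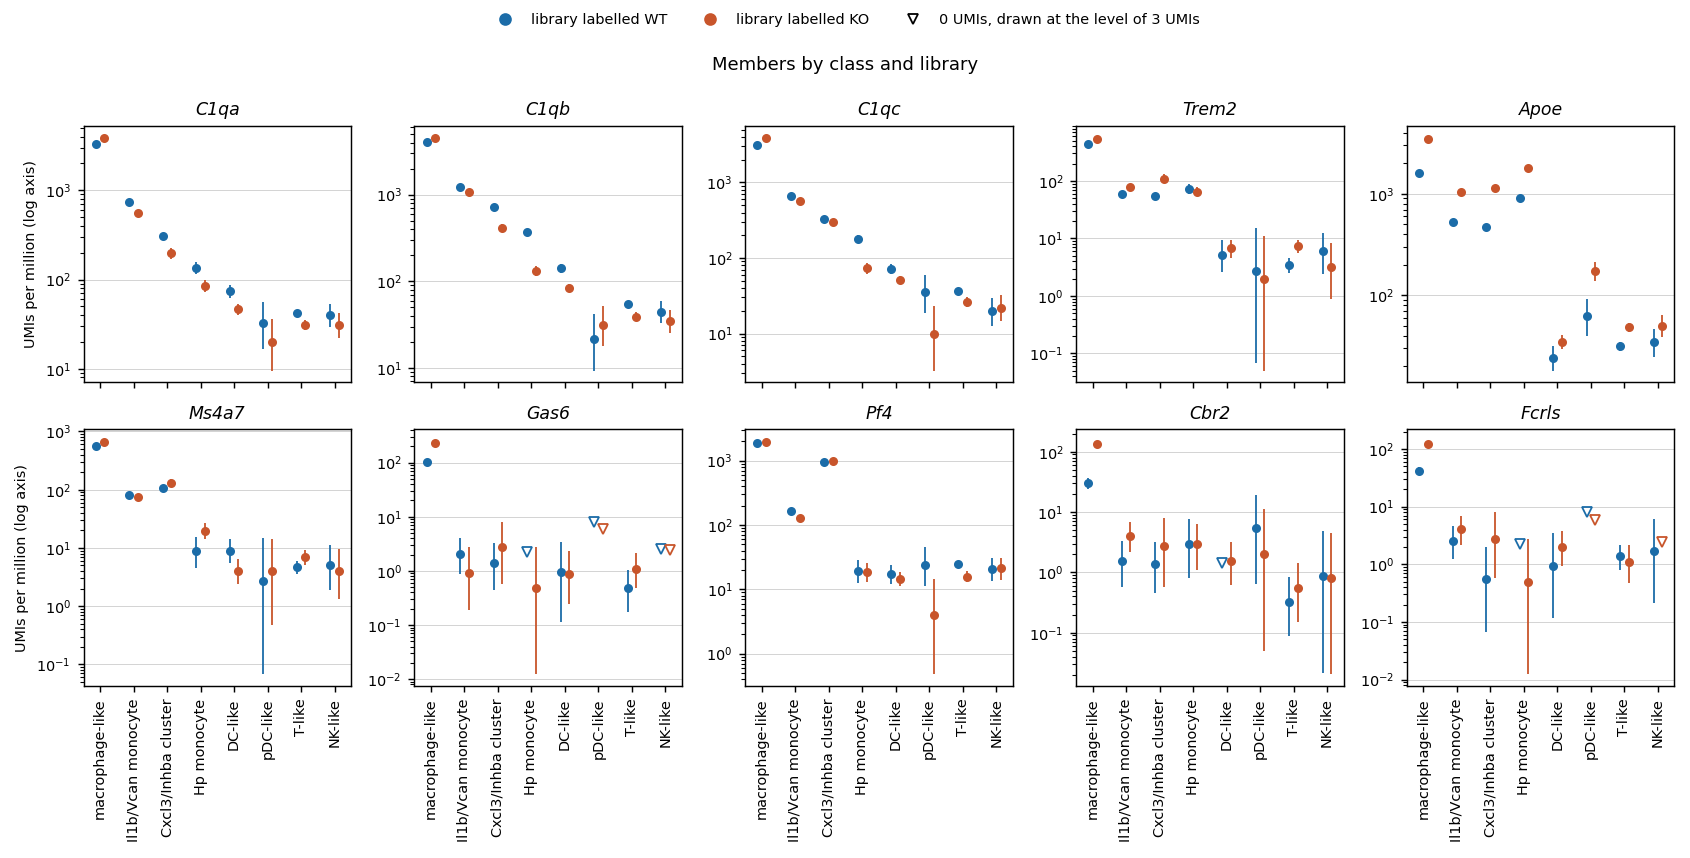
Level of each member in CPM (log axis) by class in the library labelled WT (blue) and the library labelled KO (orange), with exact 95% Poisson intervals. All 10 members were highest in the macrophage-like cells, and Gas6, Cbr2 and Fcrls lay at or under 5.39 CPM in every other class drawn, with triangles for 0 UMIs placed at the level of 3 UMIs.

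In DC-like cells the summed level was 287 and 182 CPM, and it was under 140 CPM in T-like, NK-like and pDC-like cells. T-like cells, which should lack C1q, had 133 CPM labelled WT and 96.1 CPM labelled KO. In them 1 cell held 412 of the 1656 C1q UMIs labelled WT and 1 cell 169 of the 695 UMIs labelled KO, and the levels without those cells were 101 and 73.0 CPM. NK-like cells had 104 and 87.8 CPM. The Klra7 cluster had 95.5 CPM labelled WT and 205 CPM labelled KO, but 1 cell held 141 of its 242 C1q UMIs labelled KO, and 88.6 CPM remained without it. These lymphoid levels are the background against which the others are read. The B-like cells labelled KO showed 1785 CPM, but 1 cell of 23911 UMIs held 185 of the 191 C1q UMIs, and 72.2 CPM remained without it.

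After each cell was thinned to 3000 UMIs, all 3 chains were detected together in 84.5% (labelled WT) and 89.7% (labelled KO) of macrophage-like cells. In the Il1b/Vcan monocyte-like cluster this share was 23.9% and 20.3%, in the Cxcl3/Inhba cluster 14.9% and 7.58%, and in the Hp monocyte-like cluster 4.97% and 1.5%. T-like cells had 0.217% and 0.118%. Single chains were less restricted, with C1qb detected in 9.99% and 10.3% of thinned T-like cells.

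In the other 3 myeloid clusters a minority of cells held most of the C1q UMIs. Cells with more than 20 C1q UMIs per 10000 made up 85.9% (79.1 to 91.2%) of the macrophage-like cells labelled WT, and among those labelled KO 92.9% (86.9 to 96.7%). In the Il1b/Vcan monocyte-like cluster they were 90 of 306 cells (29.4%, 24.4 to 34.9%) and 69 of 306 cells (22.5%, 18.0 to 27.6%), and they carried 93.3% and 92.6% of that cluster's C1q UMIs. Their level was 6714 CPM labelled WT and 6962 CPM labelled KO. In the Cxcl3/Inhba cluster 59 of 362 cells (16.3%) and 8 of 133 cells (6.02%) were of this kind, at 6083 and 7489 CPM, with 84.6% and 77.3% of the C1q UMIs. In the Hp monocyte-like cluster 13 of 161 cells (8.07%) and 5 of 267 cells (1.87%) were, at 5339 and 6487 CPM, with 77.9% and 61.9% of the C1q UMIs. The high cells were picked by the C1q level itself, and those labelled KO were few in the Cxcl3/Inhba and Hp clusters. There 1 cell held 237 of the 985 C1q UMIs labelled KO and 1 cell 139 of the 593, respectively. No direction between the labels is therefore given for the level per high cell. The share of high cells was lower labelled KO in the Cxcl3/Inhba and Hp clusters, with intervals that did not overlap (12.6 to 20.5% against 2.63 to 11.5%, and 4.37 to 13.4% against 0.611 to 4.32%). DC-like cells held 4 and 4 such cells, with 63.5% and 51.7% of the C1q UMIs of that class. T-like cells held 2 and 1, with 37.4% and 24.3%, and NK-like cells held 0 of 188 and 0 of 268.

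Within single cells the 3 chains rose and fell together. Over the macrophage-like cells, Pearson's r of their log-normalised levels was 0.89 to 0.93 labelled WT (142 cells) and 0.94 to 0.96 labelled KO (126 cells). In the Il1b/Vcan monocyte-like cluster r was 0.81 to 0.92 and 0.84 to 0.90. The other members followed C1q far less closely. In macrophage-like cells r of C1qb was 0.17 and 0.18 with Trem2, 0.26 and 0.23 with Apoe, and 0.25 and 0.26 with Ms4a7. Pf4 had an r of -0.04 with C1qb labelled WT and 0.29 labelled KO. The cells of a library share depth and free RNA, so these values describe the cells and no more.

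The proportion of the 3 chains was not the same at every level. In macrophage-like cells C1qb made up 38.6% of the C1q UMIs labelled WT and 36.9% labelled KO, C1qa 31.5% and 31.4%, and C1qc 29.95% and 31.7%. In the Il1b/Vcan monocyte-like cluster C1qb made up 47.1% and 48.8%, in the Cxcl3/Inhba cluster 53.1% and 45.6%, and in the Hp monocyte-like cluster 54.1% and 45.4%. T-like cells had 41.1% and 40.7%.

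Sorting the cells of the 4 myeloid clusters by their own C1q level gave the same picture in each library. Cells with 5 to 20 C1q UMIs per 10000 had 63.4% C1qb (60.5 to 66.2%, 78 cells) labelled WT and 61.1% (57.0 to 65.1%, 46 cells) labelled KO. At 20 to 50 the share was 55.9% and 50.8%, at 50 to 100 it was 44.4% and 43.0%, and above 100 it was 38.5% (37.9 to 39.0%, 100 cells) and 37.0% (36.5 to 37.6%, 100 cells). C1qa took the opposite course, from 12.4% and 14.7% at 5 to 20 to 32.3% and 31.7% above 100. C1qc stayed between 24.2% and 31.3% over these 4 ranges. The order also held inside the Cxcl3/Inhba cluster labelled WT, where C1qb went from 65.4% at 5 to 20 to 50.5% at 50 to 100, and inside the Il1b/Vcan cluster, where it went from 62.4% to 44.3% labelled WT and from 61.5% to 48.7% labelled KO. Below 5 UMIs per 10000, near the lymphoid level, the C1qb share was 43.2% to 46.7% labelled WT and 37.8% to 44.1% labelled KO. The C1q level that sorts the cells is the sum of the same UMIs, so the shares are a description.

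**Figure D2:**
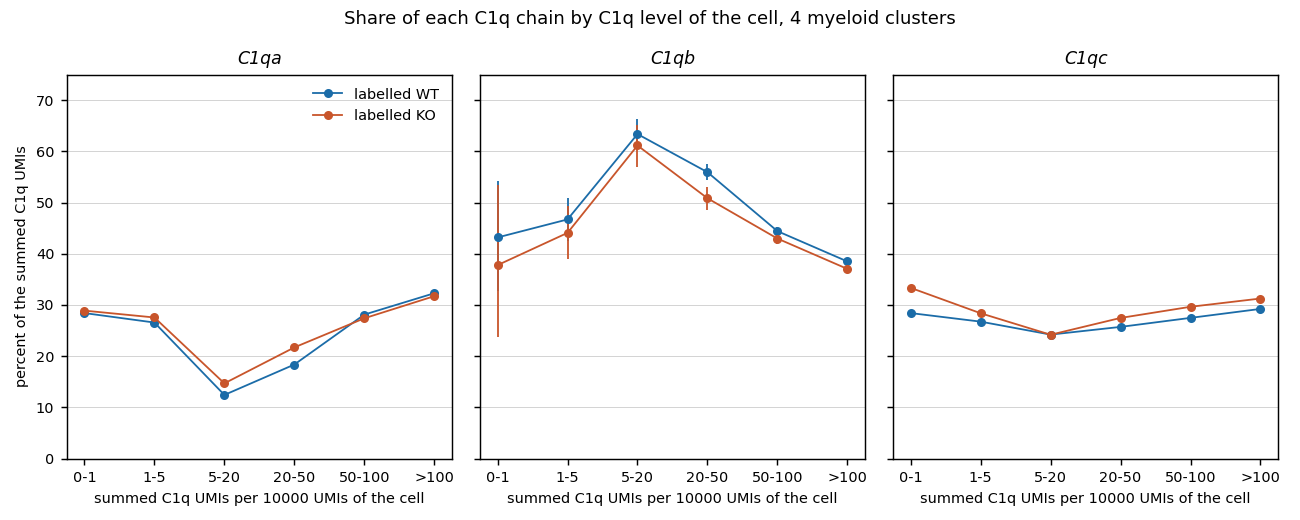
Share of each C1q chain in the summed C1q UMIs (percent, vertical axis) of cells sorted by their C1q UMIs per 10000 UMIs, over the 4 myeloid clusters, labelled WT (blue) and KO (orange). C1qb peaked at 63.4% and 61.1% in cells at 5 to 20 and C1qa was lowest there, and bars on C1qb are exact 95% binomial intervals.

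Trem2 and Apoe had different reach outside the macrophage-like cells. Trem2 was 443 CPM labelled WT and 537 CPM labelled KO in macrophage-like cells. It was 54.2 and 110 CPM in the Cxcl3/Inhba cluster, 58.6 and 77.9 CPM in the Il1b/Vcan cluster, 72.6 and 65.1 CPM in the Hp cluster and at most 11.9 CPM elsewhere. Neighbouring intervals of these 3 clusters overlapped in the library labelled WT. Apoe was the member least bound to macrophage-like cells. Its level there was 1591 and 3507 CPM, against 914 and 1797 CPM in the Hp cluster, 525 and 1047 CPM in the Il1b/Vcan cluster and 474 and 1135 CPM in the Cxcl3/Inhba cluster. Thus the Hp cluster, lowest of the 4 in C1q, was second in Apoe in both libraries. B-like cells had 403 CPM labelled WT (7 cells, 4 of them with Apoe) and 374 CPM labelled KO (24 cells, 9 of them with Apoe), and pDC-like cells had 62.0 and 172 CPM, while T-like cells had 31.4 and 48.4 CPM.

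Ms4a7 differed widely among the 4 myeloid clusters. It was 555 and 652 CPM in macrophage-like cells, 106 and 130 CPM in the Cxcl3/Inhba cluster, 82.7 and 75.4 CPM in the Il1b/Vcan cluster and 8.89 and 19.6 CPM in the Hp cluster. Pf4 divided the remaining clusters differently from C1q. It was 1902 and 1962 CPM in macrophage-like cells and 958 and 978 CPM in the Cxcl3/Inhba cluster, but only 165 and 128 CPM in the Il1b/Vcan cluster, which held more C1q, and 19.3 and 18.6 CPM in the Hp cluster, at the level of T-like cells (24.5 and 15.8 CPM).

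Gas6, Cbr2 and Fcrls were nearly confined to the macrophage-like cells. Of all Gas6 UMIs, 93.8% labelled WT and 96.7% labelled KO were in that cluster. For Cbr2 the share was 81.2% and 91.0%, and for Fcrls 79.9% and 90.3%. Gas6 was 101 and 231 CPM in macrophage-like cells and at most 2.77 CPM in the other 3 myeloid clusters. In the Hp monocyte-like cluster labelled WT, Gas6 and Fcrls had 0 UMIs, where 3 UMIs would be 2.22 CPM. Macrophage-like cells without any UMI of these genes were 58 of 142 (40.8%, 32.7 to 49.4%) labelled WT and 28 of 126 (22.2%, 15.3 to 30.5%) labelled KO. Those with all 3 were 11 of 142 (7.75%, 3.93 to 13.4%) and 41 of 126 (32.5%, 24.5 to 41.5%), intervals that did not overlap. Detection also moved with depth, since the median was 19012.5 UMIs in cells with none and 31154 UMIs in cells with all 3 labelled WT (16738 and 24942 UMIs labelled KO), while the medians of the whole cluster were close in the 2 libraries.

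**Figure D3:**
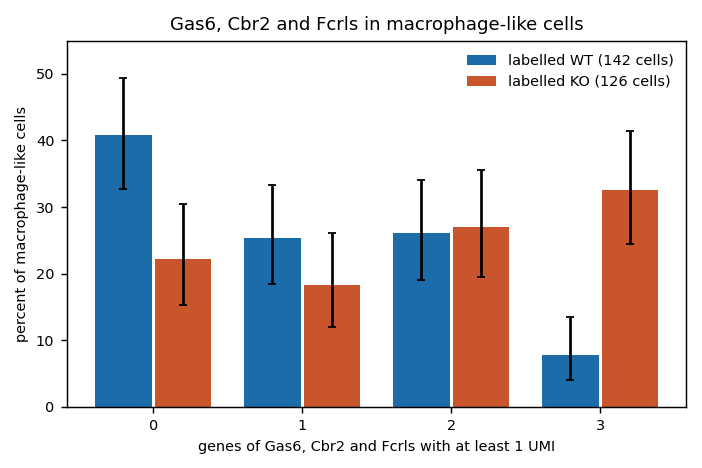
Percent of macrophage-like cells (vertical axis, from 0) with at least 1 UMI of 0, 1, 2 or 3 of the genes Gas6, Cbr2 and Fcrls, labelled WT (blue) and KO (orange), with exact 95% binomial intervals. Cells with all 3 were 7.75% labelled WT and 32.5% labelled KO.

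Macrophage-like cells with at least 1 of these genes differed from cells with none in the remaining members. C1qb was 4493 against 3426 CPM labelled WT and 4645 against 3687 CPM labelled KO. Apoe was 1990 against 944 CPM and 3807 against 2175 CPM, and Trem2 505 against 341 CPM and 594 against 282 CPM. Pf4 was 2023 against 1706 CPM labelled WT but 2256 against 655 CPM labelled KO. Folr2, a folate receptor of resident-type macrophages, was 164 against 24.97 CPM and 119 against 4.15 CPM (2 UMIs in 28 cells). Mrc1, the mannose receptor, was 279 against 143 CPM and 376 against 162 CPM. H2-Ab1, an MHC class II gene, went the other way, at 1255 against 2553 CPM and 973 against 2057 CPM. In each library the cells with Gas6, Cbr2 or Fcrls thus had more Folr2 and Mrc1 and less H2-Ab1. Over all macrophage-like cells Folr2 was not higher labelled KO, at 111 CPM labelled WT and 98.3 CPM labelled KO (log2 ratio -0.18, -0.42 to 0.06). Mrc1 was higher there, at 227 and 337 CPM (0.57, 0.42 to 0.71). Among pairs of members, Gas6 and Cbr2 had the highest r that did not involve 2 C1q chains in the library labelled WT (0.42, and 0.58 labelled KO). That rank did not hold labelled KO, where Apoe with Ms4a7 (0.617), Gas6 with Pf4 (0.590) and Gas6 with Fcrls (0.588) were higher.

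Members were also compared between macrophage-like and monocyte-like cells within each library. A gene was called where it had at least 100 UMIs in both classes together and differed by at least 4-fold. Gas6, Cbr2 and Fcrls passed this minimum only through the macrophage-like cells, so they had to differ. Of the other 7 members, 6 were higher by that much in macrophage-like cells in each library, all but Apoe, while 1.90% of 6114 genes labelled WT and 2.44% of 5937 genes labelled KO were. C1qb was the nearest inside, 1017 against 4086 CPM labelled WT, a 4.02-fold difference that fell below 4-fold with 20 PCs (log2 ratio 1.95), and Apoe the nearest outside, 625 against 1591 CPM, 2.55-fold. Gas6, which was not counted, had 8 UMIs in monocyte-like cells and 319 in macrophage-like cells labelled WT, and 4 and 607 UMIs labelled KO. Against the Cxcl3/Inhba cluster 5 of the same 7 members were higher by 4-fold in each library, with a background of 2.59% and 3.70% of genes, and Pf4 (1.99-fold and 2.01-fold) and Apoe were the exceptions. The clusters were formed from genes that vary with the members, so these differences describe the classes.

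All members were lower in the cells with the most Ly6c2 than in those with none, when the cells of the 4 myeloid clusters were sorted by their Ly6c2 UMIs after thinning to 3000 UMIs. Cells with 0 Ly6c2 UMIs were 515 labelled WT and 371 labelled KO, and cells with 6 or more were 103 and 129. From the former to the latter, C1qb went from 2206 to 650 CPM labelled WT and from 2813 to 300 CPM labelled KO. Pf4 went from 1108 to 40.8 CPM and from 1235 to 17.2 CPM, and Trem2 from 214 to 62.2 CPM and from 323 to 49.0 CPM. Apoe had the flattest course, from 979 to 468 CPM and from 2461 to 1252 CPM. The course was not a steady fall for every member, since labelled KO Apoe was 1040 CPM at 3 to 5 UMIs of Ly6c2, below its 1252 CPM at 6 or more. The ranges hold different mixes of the 4 clusters. Macrophage-like cells were 22.3% labelled WT and 29.6% labelled KO of the cells without Ly6c2 and 0 of those with 6 or more, and the Cxcl3/Inhba cluster was 42.7% and 23.2% of the cells without Ly6c2. Over all 4 clusters C1qb was higher labelled KO without Ly6c2, and with 3 to 5 UMIs of Ly6c2 it was 1174 CPM labelled WT and 332 CPM labelled KO. Within the clusters and without Ly6c2 it was 4149 and 4595 CPM in macrophage-like cells, but 699 and 580 CPM in the Cxcl3/Inhba cluster, 1631 and 1544 CPM in the Il1b/Vcan cluster and 451 and 302 CPM in the Hp cluster. Nor did it fall with Ly6c2 in every cluster, since in the Cxcl3/Inhba cluster labelled WT it was 1060 CPM in the 20 cells with 6 or more. Apoe was higher in the library labelled KO in all 4 ranges, and in each of the Cxcl3/Inhba, Il1b/Vcan and Hp clusters in all 4.

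**Figure D4:**
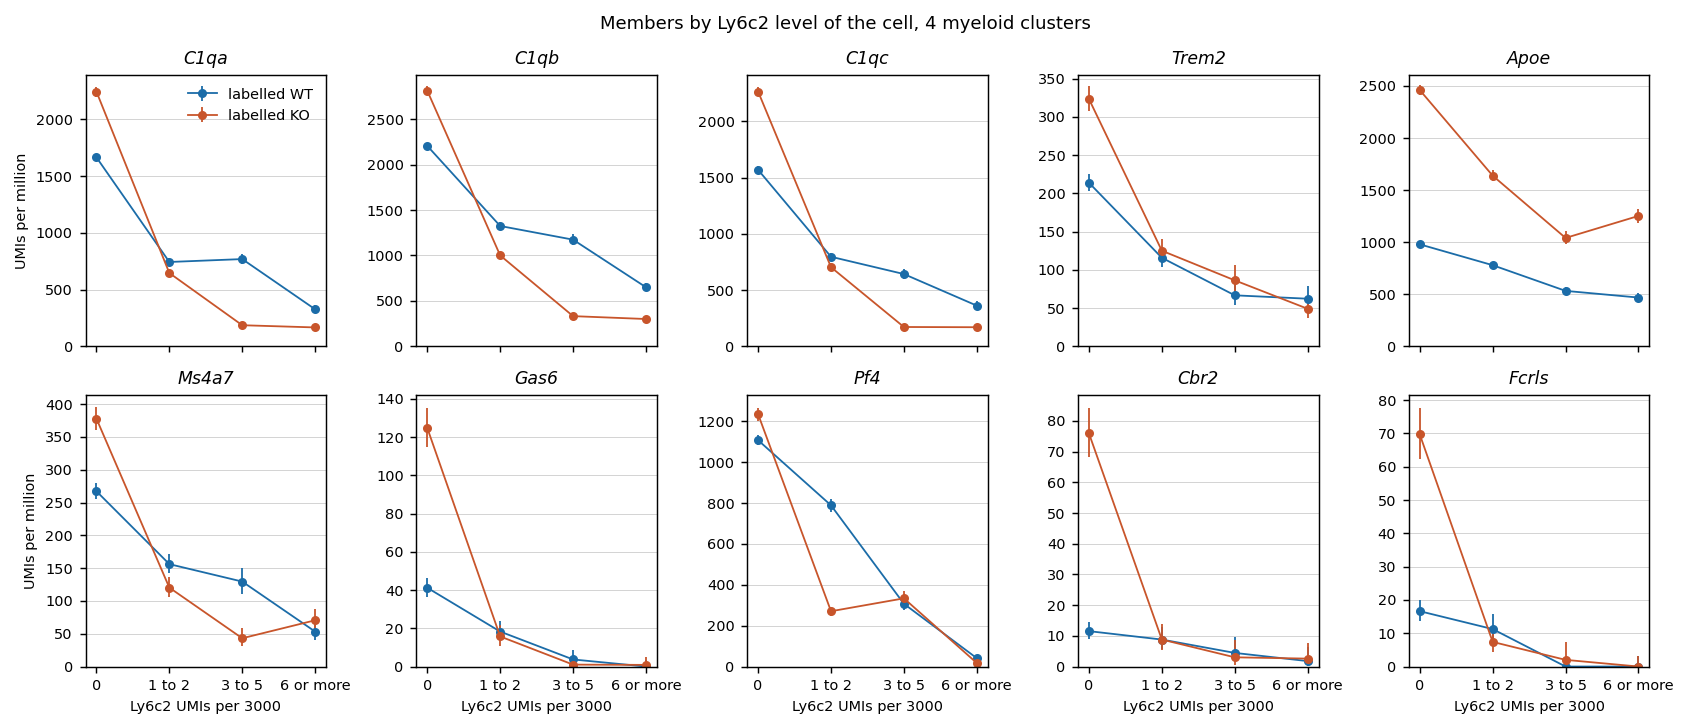
Level of each member (CPM, from 0) in cells of the 4 myeloid clusters with 0, 1 to 2, 3 to 5, or 6 or more Ly6c2 UMIs per 3000 UMIs, labelled WT (blue) and KO (orange), with exact 95% Poisson intervals. C1q lines cross between 0 and 3 to 5 UMIs, while the 2 Apoe lines stay apart.

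The comparison the design implies is of the library labelled KO with the library labelled WT. In macrophage-like cells 5158 genes had at least 100 UMIs over both libraries, all 10 members among them, and their median log2 ratio was 0.08. Higher by at least 1.5-fold in the library labelled KO were 4 of the 10 members, Apoe, Gas6, Cbr2 and Fcrls, and 0 were lower by that much, against 3.68% of the genes tested that were higher and 4.11% that were lower. The median of the members was 0.28. Intervals lay above 0 for 9 members, all but Pf4.

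Apoe went from 1591 CPM labelled WT to 3507 CPM labelled KO, a log2 ratio of 1.14 (1.09 to 1.19). A single cell of 10788 UMIs held 936 of the 5011 Apoe UMIs labelled WT (18.7%), and the level without it was 1298 CPM. Gas6 went from 101 to 231 CPM (1.19, 0.99 to 1.39). Cbr2 went from 30.2 to 135 CPM (2.16, 1.83 to 2.51) and Fcrls from 41.6 to 123 CPM (1.57, 1.27 to 1.87). Of the genes tested in this cluster, 99.7% had a lower ratio than Apoe, and the ratios of Gas6, Cbr2 and Fcrls had larger shares of genes below them.

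The C1q chains differed by much less in the same cells. C1qa was 3332 CPM labelled WT and 3813 CPM labelled KO (0.19, 0.15 to 0.23), C1qb 4086 and 4469 CPM (0.13, 0.09 to 0.17) and C1qc 3172 and 3842 CPM (0.28, 0.24 to 0.32). Trem2 (0.28), Ms4a7 (0.23) and Pf4 (0.04, -0.01 to 0.10) were in the same range. Of all genes tested, 44.6% had a lower ratio than Pf4 and 79.3% a lower ratio than Trem2, and the chains and Ms4a7 lay between. With the macrophage-like cells and the Cxcl3/Inhba cluster standardised to 1 mix, C1qb stood at -0.05, so its direction is not fixed by these data.

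**Figure D5:**
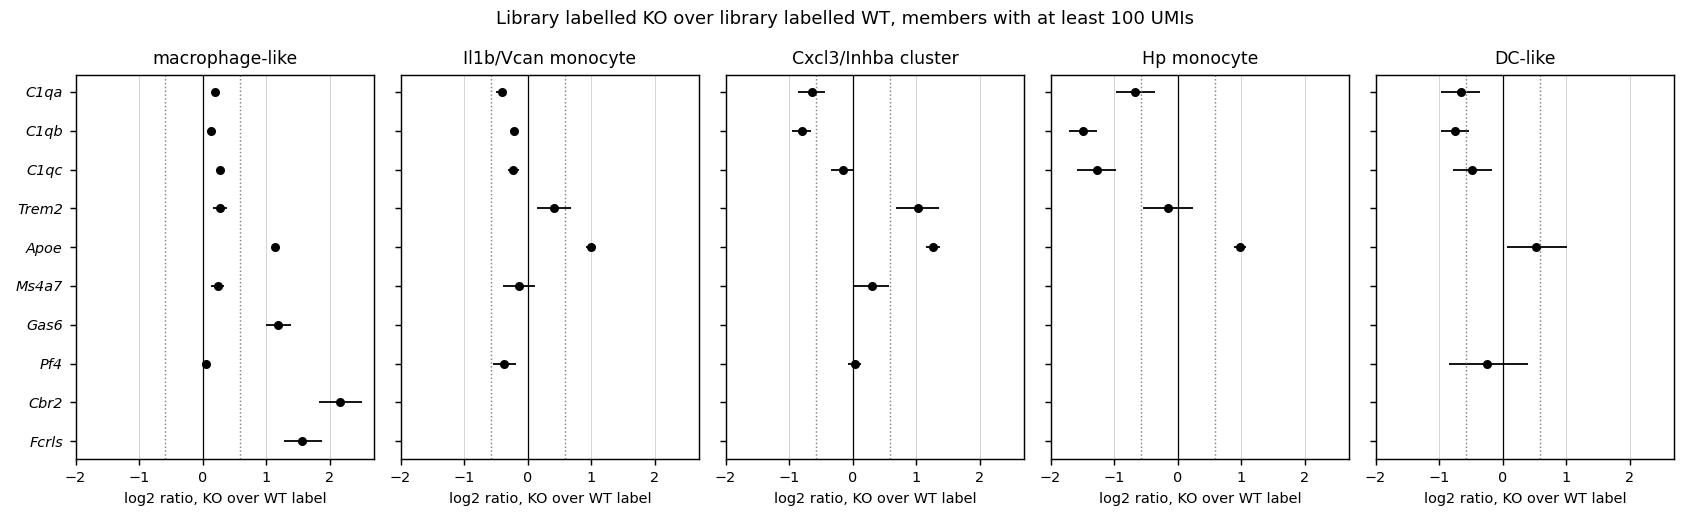
Log2 ratio of the library labelled KO over the library labelled WT (horizontal axis) of members with at least 100 UMIs in 5 classes, with exact 95% intervals of counting error and dotted lines at 1.5-fold. Apoe lies near 1 in the 4 myeloid clusters, and the C1q chains lie slightly above 0 in macrophage-like cells and below 0 in the other panels.

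Cycling cells, with at least 5 UMIs of 6 cell cycle genes, were 44 of 142 macrophage-like cells labelled WT and 58 of 126 labelled KO. Among cells not cycling the log2 ratio was 1.25 for Apoe, 1.24 for Gas6, 1.90 for Cbr2 and 1.15 for Fcrls, and among cycling cells 1.15, 1.04, 2.20 and 1.62. C1qa was at 0.01 (-0.05 to 0.07) in cycling cells and 0.35 in the others. Pf4 was at 0.46 (0.37 to 0.56) in cycling cells and -0.09 (-0.16 to -0.02) in the others, so no direction is given for it. Other cell types' markers moved with the labels in the macrophage-like cells. The summed T list was 222 CPM labelled WT (10th to 90th percentile of cells 0 to 289) and 99.4 CPM labelled KO (0 to 162), with 10 of 12 genes lower, and the melanoma list 88.3 CPM (0 to 212) and 42.3 CPM (0 to 118), 6 of 6 lower. The neutrophil list was 257 CPM (42.5 to 366) and 36.9 CPM (0 to 135), with 8 of 9 genes lower and 1 at 0 in both libraries. The monocyte list was 1343 CPM (211 to 3011) and 891 CPM (180 to 2028), with 10 of 15 genes lower and 5 higher. Other lists went up, the B list from 27.0 CPM (0 to 86.6) to 58.3 CPM (0 to 110), with 7 of 8 genes higher. The NK list went from 34.0 CPM (0 to 84.3) to 49.1 CPM (0 to 80.6), with 9 of 10 higher. Cells with UMIs of both lineages, at least 3 of the Cd3 genes and at least 5 of 7 myeloid genes, were 28.2% and 13.5%. Without them the counts of members past 1.5-fold stayed at 4 higher and 0 lower, with Cbr2 at 2.82, Gas6 at 1.67, Fcrls at 1.74 and Apoe at 1.06, and the part of the other markers in the ratios was not tested.

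In the Cxcl3/Inhba cluster Apoe and the C1q chains went in opposite directions. Of the 7 members with at least 100 UMIs, 2 were higher and 2 lower by at least 1.5-fold, against 4.85% and 9.54% of 4045 genes. Apoe went from 474 to 1135 CPM (1.26, 1.15 to 1.37) and Trem2 from 54.2 to 110 CPM (1.02, 0.68 to 1.35). C1qa went from 307 to 197 CPM (-0.64, -0.86 to -0.43) and C1qb from 724 to 414 CPM (-0.80, -0.95 to -0.66). C1qc (-0.16), Ms4a7 (0.30) and Pf4 (0.03) were inside 1.5-fold. Without the cell with the most Pf4 UMIs in each library Pf4 stood at -0.23 (-0.35 to -0.12). A single cell held 24.1% of the C1q UMIs labelled KO in this cluster, and the summed chains were 705 CPM without it. Without the cell with the most C1q UMIs in each library the ratios were -0.86 for C1qa, -1.09 for C1qb and -0.51 for C1qc. Markers of other cell types moved here too. The summed neutrophil list was 1107 CPM labelled WT (10th to 90th percentile of cells 0 to 1061) and 176 CPM labelled KO (0 to 432), with 9 of 9 genes lower. The NK list was 32.8 CPM (0 to 117) and 126 CPM (0 to 139), 9 of 10 genes higher, and the B list 12.8 CPM (0 to 0) and 48.9 CPM (0 to 110), 8 of 8 higher, and their part in the ratios was not tested.

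Monocyte-like cells showed the same opposition. In the Il1b/Vcan cluster 1 of 7 members, Apoe, was higher and 0 were lower, against 2.09% and 4.94% of 5402 genes. Apoe went from 525 to 1047 CPM (0.996, 0.92 to 1.08). C1qa went from 730 to 552 CPM (-0.40, -0.49 to -0.32), C1qb from 1240 to 1067 CPM (-0.22) and C1qc from 664 to 567 CPM (-0.23). Trem2 stood at 0.41 (0.14 to 0.67) and Pf4 at -0.37 (-0.55 to -0.19). A single cell held 121 of the 410 Pf4 UMIs labelled KO, and without the cell with the most Pf4 UMIs in each library Pf4 stood at -0.63 (-0.84 to -0.42), past 1.5-fold. In this cluster the neutrophil list was 388 CPM (0 to 615) labelled WT and 89.1 CPM (0 to 253) labelled KO, with 7 of 9 genes lower, and the T list 253 CPM (0 to 420) and 160 CPM (0 to 264), with 12 of 12 lower, while the B list was 15.1 CPM (0 to 53.8) and 32.7 CPM (0 to 58.6), with 7 of 8 higher. Their part in the ratios was not tested.

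In the Hp cluster 1 of 5 members was higher and 3 were lower, against 3.53% and 4.67% of 3599 genes. Apoe went from 914 to 1797 CPM (0.97, 0.88 to 1.07). C1qb went from 370 to 132 CPM (-1.49, -1.71 to -1.27), C1qc from 178 to 73.5 CPM (-1.27, -1.58 to -0.97) and C1qa from 136 to 85.2 CPM (-0.67, -0.98 to -0.36), and 23.4% of the C1q UMIs labelled KO there were in 1 cell. Without the cell with the most C1q UMIs in each library these ratios were -1.61, -1.34 and -1.02. The T list of this cluster was 342 CPM (0 to 445) and 217 CPM (0 to 279), with 10 of 12 genes lower, and the B list 30.4 CPM (0 to 101) and 54.9 CPM (0 to 130), with 7 of 8 higher, and their part was not tested. With both monocyte-like clusters together, 1 of 7 members was higher and 1 lower (C1qa, -0.64), against 3.04% and 5.23% of 6482 genes. The count of members lower ran from 0 in the Il1b/Vcan cluster alone to 5 with 20 PCs over other clusterings, scalings and cell filters. C1qb (-0.53), C1qc (-0.52) and Pf4 (-0.58) lay just inside the limit of 1.5-fold, and some ratios moved far with the choice of cells, such as C1qb to -1.65 at a resolution of 0.4 and, with a gate on markers in place of clusters, Pf4 to -2.83, C1qa to -1.29 and Apoe from 1.10 to 1.90.

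Apoe was thus higher in the library labelled KO by a log2 ratio between 0.97 and 1.26 in all 4 myeloid clusters. Classes that held little Apoe varied more. The ratio was 0.52 (0.07 to 1.02) in DC-like, 0.62 (0.41 to 0.84) in T-like and 0.54 (-0.05 to 1.16) in NK-like cells, but 1.45 (0.80 to 2.21, 23 and 87 UMIs) in pDC-like cells and 1.93 (1.31 to 2.68, 22 and 144 UMIs) in the Klra7 cluster. There 1 cell held 71 of the 144 UMIs labelled KO, and without the cell with the most Apoe UMIs in each library the ratio was 1.21 (0.49 to 2.05). Since T-like and NK-like cells should hold little Apoe, part of the level in any class can be free RNA, whose part in the ratios was not tested.

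In DC-like cells C1qa (-0.66, -0.97 to -0.35), C1qb (-0.76, -0.98 to -0.53) and C1qc (-0.48, -0.78 to -0.17) had ratios below 0. A single cell held 76 of the 155 C1qa UMIs labelled WT. Without the cell with the most C1q UMIs in each library, C1qa was 37.99 CPM labelled WT and 35.2 CPM labelled KO (-0.11, -0.51 to 0.30), while C1qb stood at -0.73 (-0.99 to -0.47) and C1qc at -0.53 (-0.88 to -0.17). With all DC-like cells, 0 of 5 members were higher and 2 were lower by 1.5-fold, against 2.67% and 6.44% of 5437 genes, and the summed chains stood at -0.39 without the cells of both lineages in place of -0.66. In T-like cells 1 of 6 members was higher (Apoe) and 1 lower (Pf4, -0.63, and -0.58, inside 1.5-fold, without the cell with the most Pf4 UMIs in each library), against 4.30% and 5.37% of 8322 genes. The T-like class is made of 4 clusters that the libraries filled differently (151 and 401, 342 and 178, 273 and 113, and 155 and 173 cells), with median depths of 11101 and 5279 UMIs. Within them Pf4 stood between -1.85 and 1.30 and Apoe between 0.04 and 0.95, so no direction is given for Pf4, and the interval of Apoe lay above 0 in 1 of the 4. The summed chains stood at -0.47 in T-like cells and at 0.33 without the cells of both lineages, so no direction is given for them.

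The partners of these genes were read in macrophage-like cells from lists, against the 3.68% of genes higher and 4.11% lower by 1.5-fold there. Of 30 genes of the complement pathway, 25 had a row and 13 had at least 100 UMIs, with 0 higher and 1 lower by 1.5-fold (Itgax, a chain of complement receptor 4, 38.4 and 23.2 CPM, -0.72) and a median of 0.10, close to the 0.08 of all genes. C3ar1 (0.10) and C5ar1 (0.36), receptors of the complement fragments C3a and C5a, and Cfp (0.15), properdin, were inside 1.5-fold. C1ra, whose product is a protease of the C1 complex, had 22 and 26 UMIs.

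Of 27 partners of TREM2 and apolipoproteins, 21 were tested, with 0 higher and 8 lower (3.68% and 4.11% of all genes tested) and a median of -0.38 (0.08 for all genes). Nr1h3, which encodes the sterol-sensing receptor LXR alpha, was 50.8 and 20.9 CPM (-1.27, -1.75 to -0.83). Gpnmb, a lysosomal glycoprotein, was 485 and 233 CPM (-1.06), Fabp4 237 and 122 CPM (-0.96) and Fabp5 3737 and 2099 CPM (-0.83), the latter pair fatty acid-binding proteins. Tyrobp, the signalling partner of TREM2, was 2197 and 2187 CPM (-0.01). Apoe itself stood at 1.14 in the same cells. Of the transporters that load lipid onto apolipoproteins, Abcg1 was lower (-0.59) and Abca1 (-0.38) was inside 1.5-fold. The directions were not shared by every cluster. In the Cxcl3/Inhba cluster Gpnmb (325 and 727 CPM), Fabp4 (75.4 and 102 CPM) and Fabp5 (1927 and 2256 CPM) were higher labelled KO. Nr1h3 (38.1 and 31.4 CPM) was lower there too.

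Of 22 engulfment genes, 13 were tested. Stab1, a scavenger receptor, was higher (144 and 307 CPM, 1.09, 0.92 to 1.26) and Cd36, a receptor for oxidised lipid, was lower (286 and 173 CPM, -0.72), with a list median of 0.11. The Gas6 receptors Axl (74.3 and 80.4 CPM, 0.11) and Mertk (26.4 and 30.5 CPM, 0.21) had intervals that held 0. Of 12 MS4A genes besides Ms4a7, 5 were tested and 0 passed 1.5-fold in either direction, with a median of -0.14. Of 23 genes of macrophage maturation, 17 were tested, 1 was higher and 3 lower (3.68% and 4.11% of all genes tested), with a median of -0.15. Selenop, a selenium carrier, was higher (473 and 828 CPM, 0.81). The transcription factors Mitf (-0.999), Tfec (-0.78) and Cebpb (-0.68) were lower, while Maf stood at 0.56.

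The 5 genes most like the summed C1q chains over 28 points (13 clusters labelled WT and 15 labelled KO with at least 20 cells, log2 of CPM plus 1), members left aside, were Snx2 (r = 0.90), Lipa (0.89), Lpl (0.88), Fcgr4 (0.87) and Clec5a (0.87). Among the members the values were 0.94 for Ms4a7, 0.88 for Trem2, 0.84 for Pf4 and 0.82 for Apoe, and 0.64 to 0.69 for Gas6, Cbr2 and Fcrls. Over the 268 single macrophage-like cells, with r averaged over the libraries, the nearest genes were Aif1 (0.59), Cd81 (0.56), Ly86 (0.48), Ctsc (0.48) and Clec12a (0.47), all nearer than any other member, of which Gas6 was nearest (0.31).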

How the data were processed

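scRNAseq was made from sorted tumor-infiltrating immune cells, 1 library per genotype. The authors counted UMIs with Cell Ranger against mm10 (per the labels), aggregated both libraries, filtered cells and ran Seurat's NormalizeData. The deposited table is described as raw counts, but its values are on the natural log scale, each cell's UMIs having been scaled to 10000 and 1 added before the log was taken. Undoing the log gave whole UMIs in 5022 of 5022 cells for 100% of nonzero values (tolerance 0.01).

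The 10 members and all lists were chosen with earlier results of these data known. Cells were clustered in Seurat 5.3.0 (R 4.3.3) with 592 variable genes, 13 PCs and a resolution of 0.8. No doublets were removed. A marker counted as detected in a cluster when 10% of the cells or more held it and its level was above the mean of clusters. Each cluster was named for the list of which it had the greatest part, with 3 markers as the minimum, and stayed unnamed where its leading 10 genes spoke for another class. No test was possible with 1 library per genotype. CPM has exact Poisson, shares exact Clopper-Pearson and log2 ratios (0.5 UMIs added) exact conditional binomial 95% intervals (Python 3.11.15, numpy 2.4.6, scipy 1.17.1). Only the intervals of the log2 ratios were tested on simulated data. All of these intervals cover counting error only. Genes were named by this rule: all members, up to 4 genes of each list in each direction past 1.5-fold with separate intervals and at least 100 UMIs, and the 5 genes most like C1q. Genes named beside these in the text were chosen after their values were seen, as were the C1q and Ly6c2 ranges. Alternatives covered clustering, scaling, doublets, depth, weighting, a marker gate and the minimum of UMIs. No protein sequences were used here. Some genes are not reported here, and the maturation list was counted without 1 of them.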

Additional observations from a re-analysis of the deposited data

Results flagged for a closer look

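The C1q chains had ratios on opposite sides of 0, beyond counting error, in different myeloid classes under the same contrast of the library labelled KO with the library labelled WT. The difference between classes was not tested, since each class had 1 library per label. The log2 ratio of C1qa was 0.19 in macrophage-like cells, -0.64 in the Cxcl3/Inhba cluster, -0.40 and -0.67 in the Il1b/Vcan and Hp monocyte-like clusters, and -0.66 in DC-like cells, where it was -0.11 (-0.51 to 0.30) without the cell with the most C1q UMIs in each library. The log2 ratio of C1qb was 0.13 in macrophage-like cells (-0.05 with the Cxcl3/Inhba cluster added in 1 mix, so that side is not fixed), -0.80 in the Cxcl3/Inhba cluster, -0.22 and -1.49 in the monocyte-like clusters, and -0.76 in DC-like cells. The log2 ratio of C1qc was 0.28 in macrophage-like cells, -0.16 (-0.34 to 0.02, an interval that holds 0) in the Cxcl3/Inhba cluster, -0.23 and -1.27 in the monocyte-like clusters, and -0.48 in DC-like cells. Among members with at least 100 UMIs in a class, no other had intervals on both sides of 0 in these 5 classes.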

How the results depend on the processing

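No paired analysis was possible because each genotype had 1 library, and no replicate could be left out. In macrophage-like cells the count of members higher by 1.5-fold was 4, and it was 2 with a minimum of 500 UMIs, which Cbr2 and Fcrls do not reach, and 8 with the Cxcl3/Inhba cluster added. It stayed at 4 under the other 17 alternatives, of which the log2 ratio of Apoe ran from 0.78 (marker gate) to 1.38 (without the cell with the most Apoe UMIs in each library). With the marker gate Gas6 stood at 2.14, Cbr2 at 2.99 and Fcrls at 2.45. Pf4 ran from -0.10 (mean over cells) to 0.46 (cycling cells). Of the 7 members with at least 100 UMIs in monocyte-like cells, 6 in each library were higher by 4-fold in macrophage-like cells. This count ran from 5 (20 PCs, another seed and without shared barcodes) to 7 labelled WT and was 6 under all 14 alternatives labelled KO. A mix of clusters within the macrophage-like class could not be tried, since it is 1 cluster, and the 1 mix was made with the Cxcl3/Inhba cluster.

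In monocyte-like cells the count of members lower by 1.5-fold was 1. It was 2 at resolution 1.2 and without cells of both lineages, 3 at resolution 0.4 and for the mean over cells, 4 with another seed and with the marker gate, and 5 with 20 PCs, and it was 0 in the Il1b/Vcan cluster and 3 in the Hp cluster alone. The count higher was 2 with a minimum of 20 UMIs. The log2 ratios of C1qa, C1qb and C1qc were below 0 under all 16 alternatives. Without the cells of both lineages the log2 ratio of summed C1q was -0.39 in DC-like and 0.33 in T-like cells. In the Klra7 cluster, without the cell with the most C1q UMIs in each library, C1qa went from 0.77 to -0.36, C1qc from 1.36 to -0.10 and C1qb from 1.08 to 0.15.

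Thinned to 3000 UMIs per cell, summed C1q was 10113 CPM (labelled WT) and 12415 CPM (labelled KO) in macrophage-like cells, 1605 and 1022 CPM in monocyte-like cells and 1159 and 588 CPM in the Cxcl3/Inhba cluster, and the C1qb share was 39.3% in macrophage-like cells labelled WT and 49.8% in monocyte-like cells labelled KO. Without the cells of both lineages summed C1q was 11163 and 12304 CPM in macrophage-like cells and 1407 CPM in monocyte-like cells labelled KO.

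In the lists, median-ratio scaling gave 2 complement and 2 engulfment genes lower. A minimum of 20 UMIs gave 1 complement gene higher and 2 lower, 1 MS4A gene higher and 1 lower, and 2 maturation genes higher and 5 lower. A minimum of 500 UMIs gave 0 complement and 0 maturation genes lower. The shared barcodes, single cells, cycling and single monocyte-like clusters were alternatives added after the data were seen, as were the limits of the marker gate. The causes were not tested.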
